A study of Mus musculus with 6 samples.

Results

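The genes described here sense double-stranded RNA or act directly on its sensing in mammalian cells. The members are a named list of 9 genes, Ddx58, Ifih1, Dhx58, Mavs, Tlr3, Zbp1, Adar, Eif2ak2 and Trim25, chosen by their function. All 9 were found among the 34199 gene symbols of the expression table. The tumors were peripheral T-cell lymphomas (PTCL) that arose in lymph nodes of Dnmt3b+/- mice on the FVB (FVB/N) background. Their knockout allele is a conventional one, derived from the Dnmt3b 2loxP line, so the genotype is that of the whole animal and not of its T cells alone, and the mice were terminally sick when taken, at ages not given in the sources used here. Total RNA of 3 tumors, numbered 1 to 3 as in the labels, was sequenced as read pairs of 150 bp, and the 3 tumors form a single group with no control beside them. The 3 bisulfite sequencing samples of the series were not analysed here.

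The authors deposited FPKM, fragments per kilobase of a gene's exons, scaled to the size of the library. The depth recovered from these values was 30726570, 18969988 and 20770928 reads for tumors 1, 2 and 3. Reads on genes numbered 20271140, 12486737 and 13697148. With a single group there is no comparison between groups to test, so every value below is a description of 3 tumors. Replicates of a group have no order, and the tumor numbers are names. In these bulk samples, more cells of a type and more RNA per cell cannot be told apart.

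Long double-stranded RNA is a sign of viral replication, and it also forms when repeats and inverted elements of the genome itself are transcribed. In the cytosol it is bound by the helicases RIG-I and MDA5, which pass the signal through the mitochondrial adaptor MAVS to the kinases and transcription factors that switch on type I interferon, and interferon in turn raises the transcription of many of the sensors. Loss of DNA methylation is known to raise the transcription of such repeats in several tumor cell types, which is why these genes are often examined when a DNA methyltransferase is lowered.

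All 9 members were above 0.2 FPKM in every tumor, against 36.7% of all symbols (12551 of 34199). These 12551 genes are meant by all genes wherever FPKM or ratios between tumors are compared below, unless another number is given. By their mean over the tumors, the members ran from Zbp1 at 79.4 ± 56.2 FPKM (SD, n = 3) to Tlr3 at 1.44 ± 0.546 FPKM (SD, n = 3). The median of the members' means was 15.7 FPKM, and that of all genes above the threshold was 4.78 FPKM. In order of their means came Zbp1, Adar, Ddx58, Trim25, Dhx58, Eif2ak2, Mavs, Ifih1 and Tlr3. The step from Zbp1 to Adar was larger than the larger SD of the pair, as was the step from Ifih1 to Tlr3. Between these, each gene's mean differed from that of its neighbour in the order by less than the larger SD of the pair. That SD describes the spread between tumors, and the order can also be read within each tumor. There, Adar was above Ddx58 in every tumor, while the order of each of the other neighbouring pairs from Ddx58 to Ifih1 changed between tumors.

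**Figure D1:**
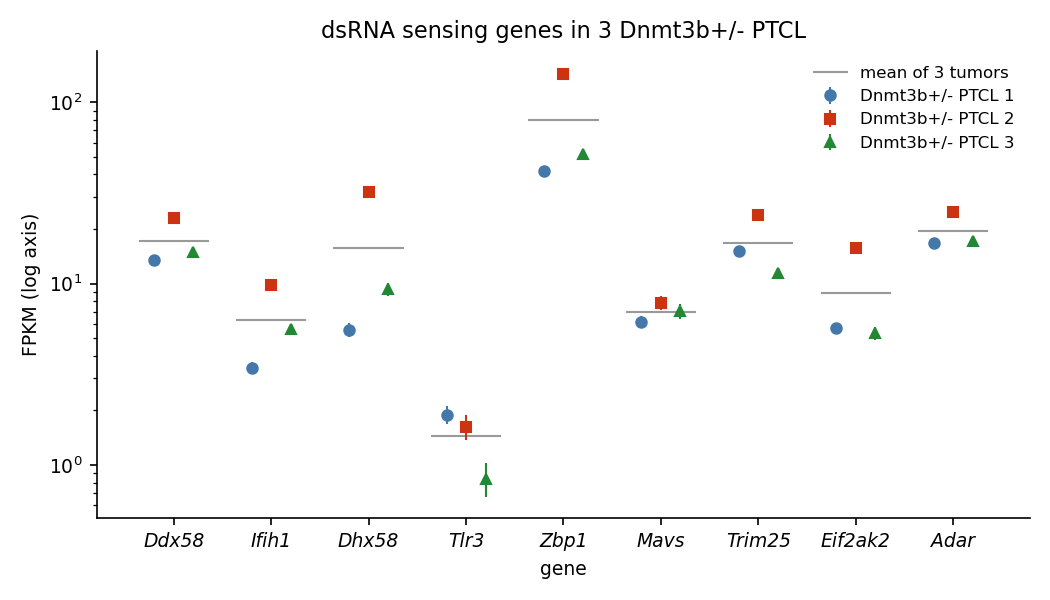
FPKM (log axis) of the 9 genes in each of the 3 tumors (PTCL 1 to 3), with 95% intervals for counting error alone as bars and the mean over the tumors as a line. Tumor 2 is the highest for 8 genes and tumor 1 for Tlr3.

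Ddx58 encodes RIG-I, the helicase that recognises short double-stranded RNA with a triphosphate at its end. The gene (ENSMUSG00000040296) lies on chromosome 4 of mm10 from 40203773 to 40239828. It had 13.6, 23.1 and 14.9 FPKM in tumors 1, 2 and 3, with a mean of 17.2 ± 5.13 (SD, n = 3). Tumor 2 stood above the other tumors, which lay close together. The ratio of tumor 2 to tumor 1 was 1.70, with a 95% interval of 1.62 to 1.79 for counting error alone, and that of tumor 3 to tumor 1 was 1.10 (1.04 to 1.17). The small difference between tumors 1 and 3 changed direction when the libraries were scaled in other ways, to 0.930 with each tumor rescaled to sum to 1000000 and to 0.977 with T cell marker factors, and was larger, at 1.30, with median-of-ratios factors.

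Ifih1 encodes MDA5, the helicase that assembles along long double-stranded RNA. The gene (ENSMUSG00000026896) lies on chromosome 2 of mm10 from 62595798 to 62646255. It had 3.44, 9.77 and 5.62 FPKM in tumors 1, 2 and 3, with a mean of 6.28 ± 3.22 (SD, n = 3). The tumors were all apart from each other, with tumor 2 the highest and tumor 1 the lowest under every scaling tried. Tumor 2 had 2.84 times the FPKM of tumor 1 (95% interval 2.61 to 3.10) and tumor 3 had 1.64 times (1.49 to 1.80).

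Dhx58 encodes LGP2, a relative of both helicases that binds double-stranded RNA but lacks the signaling domains and modulates the other two. The gene (ENSMUSG00000017830) lies on chromosome 11 of mm10 from 100694884 to 100704271. It had 5.56, 32.2 and 9.30 FPKM in tumors 1, 2 and 3, with a mean of 15.7 ± 14.4 (SD, n = 3). Of the 9 genes it varied the most between tumors, with a coefficient of variation of 92.0%, and without tumor 2 its mean was 7.43 FPKM. Tumor 2 had 5.79 times the FPKM of tumor 1 (95% interval 5.27 to 6.37) and 3.46 times that of tumor 3 (3.17 to 3.79). Among all genes above the threshold, Dhx58 stood at expression percentiles 52.6, 92.5 and 73.2 in tumors 1, 2 and 3.

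Tlr3 encodes the receptor that meets double-stranded RNA in endosomes and signals through the adaptor TRIF. The gene (ENSMUSG00000031639) lies on chromosome 8 of mm10 from 45395665 to 45411080. It had 1.88, 1.62 and 0.832 FPKM in tumors 1, 2 and 3, with a mean of 1.44 ± 0.546 (SD, n = 3). It was the lowest of the 9 genes in every tumor and rested on 301, 160 and 90 reads. It was also the only member that was not highest in tumor 2. The ratio of tumor 2 to tumor 1 was 0.861, with a 95% interval of 0.706 to 1.05, so that a difference between these tumors was not detectable at this depth. Tumor 3 had 0.442 times the FPKM of tumor 1 (0.346 to 0.562).

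Zbp1 encodes a sensor of nucleic acids in the left-handed Z form that can start necroptosis through RIPK3. The gene (ENSMUSG00000027514) lies on chromosome 2 of mm10 from 173206612 to 173218923. It had 42.0, 144.0 and 52.1 FPKM in tumors 1, 2 and 3, with a mean of 79.4 ± 56.2 (SD, n = 3). It was the highest of the 9 genes in every tumor, at percentile 97.5 of all genes above the threshold by its mean. Tumor 2 had 3.43 times the FPKM of tumor 1 (95% interval 3.31 to 3.55) and 2.77 times that of tumor 3 (2.66 to 2.87). Tumors 1 and 3 differed less, with a ratio of tumor 3 to tumor 1 of 1.24 (1.19 to 1.30). This ratio was 1.05 with each tumor rescaled to sum to 1000000 and 1.46 with median-of-ratios factors. Without tumor 2 the mean was 47.0 FPKM.

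Mavs encodes the adaptor on which RIG-I and MDA5 converge at the mitochondrial outer membrane. The gene (ENSMUSG00000037523) lies on chromosome 2 of mm10 from 131234063 to 131248025. It had 6.15, 7.79 and 7.02 FPKM in tumors 1, 2 and 3, with a mean of 6.99 ± 0.819 (SD, n = 3). Its values were the closest together of the 9 genes, with a coefficient of variation of 11.7%. Tumor 2 had 1.27 times the FPKM of tumor 1 (95% interval 1.12 to 1.43), and the interval of its ratio to tumor 3, 0.976 to 1.26, included equal values. Tumor 3 was above tumor 1 with the FPKM as deposited, at a ratio of 1.14, and 1.34 with median-of-ratios factors, and below it, at 0.963, with each tumor rescaled to sum to 1000000.

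Trim25 encodes a ubiquitin ligase that has been described as an activator of RIG-I. The gene (ENSMUSG00000000275) lies on chromosome 11 of mm10 from 88999376 to 89020293. It had 15.1, 23.9 and 11.5 FPKM in tumors 1, 2 and 3, with a mean of 16.8 ± 6.42 (SD, n = 3). Tumor 2 was the highest and tumor 3 the lowest under every scaling tried. Tumor 2 had 1.58 times the FPKM of tumor 1 (2614 against 2673 reads, in libraries of different depth) and 2.09 times that of tumor 3 (95% interval 1.96 to 2.23).

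Eif2ak2 encodes PKR, the kinase that double-stranded RNA activates and that halts translation by phosphorylating the initiation factor eIF2alpha. The gene (ENSMUSG00000024079) lies on chromosome 17 of mm10 from 78852564 to 78882573. It had 5.67, 15.6 and 5.32 FPKM in tumors 1, 2 and 3, with a mean of 8.88 ± 5.86 (SD, n = 3). Tumor 2 stood far above the other tumors, whose mean was 5.50 FPKM. Tumor 2 had 2.76 times the FPKM of tumor 1 (95% interval 2.54 to 3.00) and 2.94 times that of tumor 3 (2.67 to 3.24). The ratio of tumor 3 to tumor 1 was 0.938, with an interval of 0.843 to 1.04. It was 0.791 with each tumor rescaled to sum to 1000000, 0.831 with T cell marker factors and 1.10 with median-of-ratios factors, so which of these tumors was lower depended on the scaling.

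Adar encodes the enzyme that turns adenosine into inosine in double-stranded RNA, which keeps the cell's own RNA from being sensed by MDA5 and PKR. The gene (ENSMUSG00000027951) lies on chromosome 3 of mm10 from 89715022 to 89753446. It had 16.8, 24.8 and 17.2 FPKM in tumors 1, 2 and 3, with a mean of 19.6 ± 4.47 (SD, n = 3). The annotation lists 9 transcripts of Adar, and a value per gene does not separate the constitutive form from the form that interferon induces. Tumor 2 had 1.47 times the FPKM of tumor 1 (95% interval 1.41 to 1.54) and 1.44 times that of tumor 3 (1.37 to 1.51). Tumors 1 and 3 had a ratio of tumor 3 to tumor 1 of 1.02 (0.976 to 1.07), and of 0.864 with each tumor rescaled to sum to 1000000, 0.907 with T cell marker factors and 1.203 with median-of-ratios factors.

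For 4 members the exons overlap those of a gene on the opposite strand, and whether the authors counted reads by strand is not given in the sources used here. The overlap covers 16.8% of the exon bases of Adar (with Chrnb2), 7.32% of Tlr3 (with Gm45542), 4.31% of Dhx58 (with Dhx58os) and 3.40% of Eif2ak2 (with Gm26637). Chrnb2 had 3.94, 5.64 and 4.09 FPKM in tumors 1, 2 and 3, Dhx58os had 0.817, 4.89 and 1.06, and Gm26637 had 0.455, 2.12 and 0.547. These 3 were highest in tumor 2, as the members they overlap were. Gm45542, with 0.0743, 0.241 and 0.110 FPKM, was highest in tumor 2 while Tlr3 was highest in tumor 1. Reads in the shared bases cannot be assigned to either gene from these values.

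Of the 9 genes, 8 had their highest FPKM in tumor 2, where 34% of all genes above the threshold did. Tlr3 was the 1 member with its highest value in tumor 1, where 50.3% of all genes had theirs, and 0 members had it in tumor 3, against 15.7% of all genes. The count of 8 in tumor 2 was the same with each of the other scalings of the libraries, under which the share of all genes highest in tumor 2 ran from 31.1% to 46.5%. Under these scalings 1 member was highest in tumor 1, against 36.9% to 60.1% of all genes. Again 0 members were highest in tumor 3, against 6.84% to 26.0%. Tumor 2 had at least 2 times the FPKM of tumor 1 for 4 members (Ifih1, Dhx58, Zbp1 and Eif2ak2), against 9.37% of all genes. It had at least 2 times the FPKM of tumor 3 for 4 members (Dhx58, Zbp1, Eif2ak2 and Trim25), against 10.8%, joined by Tlr3 (2.11 times) with each tumor rescaled to sum to 1000000, and by Tlr3 (2.49 times) and Ifih1 (2.22 times) with T cell marker factors. With the FPKM as deposited both held for 3 members, Dhx58, Zbp1 and Eif2ak2, against 4.8% of all genes. Between the other tumors, 0 members had at least 2 times the FPKM of tumor 1 in tumor 3 (4.19% of all genes), and 1 member, Tlr3, had at most 0.5 times (13.3%), a ratio that was 0.520 with median-of-ratios factors.

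The ratio of the highest to the lowest tumor was at least 2 for 6 of the 9 members, Dhx58, Zbp1, Eif2ak2, Ifih1, Tlr3 and Trim25, against 35.1% of all genes. It was 1.70 for Ddx58, 1.47 for Adar and 1.27 for Mavs. The median over the members was 1.18 on the log2 scale, and 0.76 over all genes. With median-of-ratios factors 5 members reached 2, since the ratio of Tlr3 was 1.92. Tumor 2 decided this count. Without it, 1 of 9 members, Tlr3, reached a ratio of 2, against 17.5% of all genes, and the median over the members was 0.31 on the log2 scale, against 0.44 over all genes.

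The median log2 ratio of tumor 2 to tumor 1 was 0.77 over the members and -0.18 over all genes. The corresponding medians of tumor 2 to tumor 3 were 0.96 and 0.07. For tumor 3 against tumor 1 the median over the members was 0.14 with all genes at -0.24, and it became -0.10 with each tumor rescaled to sum to 1000000, where all genes were at -0.49, and -0.034 with T cell marker factors, where all genes were at -0.42. A scaling moves all genes alike, so the distance of the members' median from that of all genes stayed above 0 in each of these comparisons. With median-of-ratios factors, which bring the medians of all genes close to 0, the members' medians were 0.94 for tumor 2 to tumor 1, 0.37 for tumor 3 to tumor 1 and 0.90 for tumor 2 to tumor 3.

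**Figure D2:**
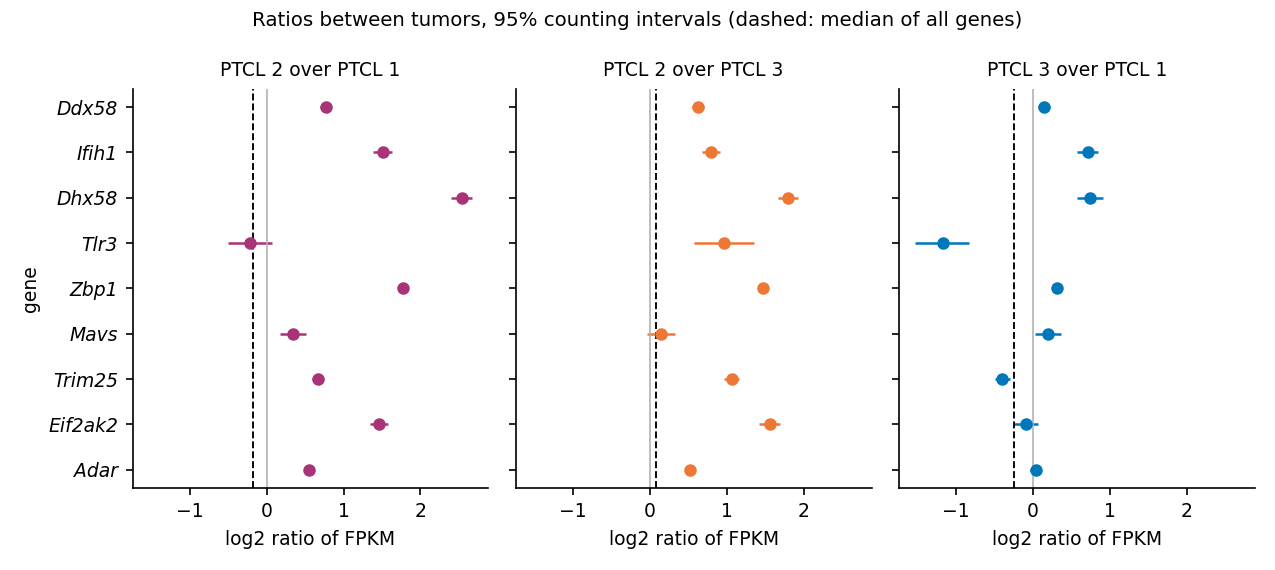
Log2 ratio of FPKM between pairs of tumors for each of the 9 genes, with 95% intervals for counting error alone and the median of all genes above the threshold. The log2 ratios of tumor 2 to tumor 1 are above the median of all genes for 8 of the genes, all but Tlr3.

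Shares and ratios of the members within a tumor do not depend on how libraries are scaled, while sums compared between tumors do. Summed over the 9 genes with the FPKM as deposited, tumors 1, 2 and 3 had 110.2, 282.8 and 123.8 FPKM. Zbp1 held 38.1%, 50.9% and 42.1% of these sums. Without Zbp1 the sums were 68.2, 138.8 and 71.7 FPKM, so that tumor 2 was also the highest over the other 8 genes.

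Of the helicases related to RIG-I, tumors 1 and 3 held more Ddx58 than Dhx58 and tumor 2 the reverse, with sums of 22.6, 65.0 and 29.9 FPKM in tumors 1, 2 and 3. Ddx58 made up 60.1%, 35.5% and 50.1% of the sum of Ddx58, Ifih1 and Dhx58. Dhx58 made up 24.7%, 49.5% and 31.1%. The share of Ifih1 varied less, at 15.2%, 15.0% and 18.8%. The ratio of Dhx58 to Ddx58 was thus 0.410, 1.40 and 0.622 in tumors 1, 2 and 3. Relative to the adaptor, the summed FPKM of the 3 helicases was 3.67, 8.35 and 4.25 times that of Mavs in tumors 1, 2 and 3.

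**Figure D3:**
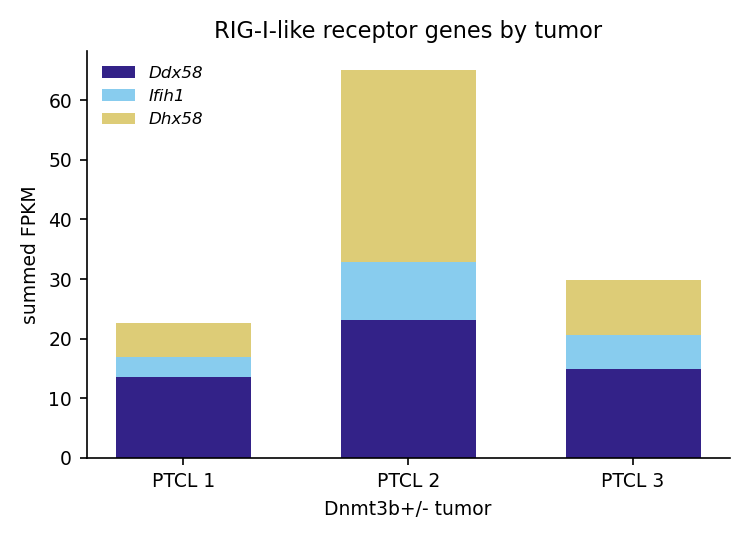
FPKM of Ddx58, Ifih1 and Dhx58 stacked to their sum in each tumor (PTCL 1 to 3). Dhx58 holds 49.5% of the sum in tumor 2, and 24.7% and 31.1% in tumors 1 and 3.

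The editor and the sensors it restrains did not change in step. The ratio of Adar to Ifih1 was 4.90, 2.53 and 3.07 in tumors 1, 2 and 3. The ratio of Adar to Eif2ak2 was 2.97, 1.58 and 3.24. In tumor 2 Adar was therefore lower relative to both genes than in the other tumors, although its own FPKM was the highest there.

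Promoter windows that reach from 250 bases before to 50 bases after a gene's start were taken from RefSeq (build GRCm38.p6), with 32851 windows of 27025 genes. They matched 7 of the 9 members with 9 windows, and not Dhx58 and Zbp1. The windows were searched on both strands for GAAANNGAA, the start of the interferon-stimulated response element, and for TTCNNNGAA, the core of a STAT site. GAAANNGAA was found in 5 of the 7 genes (71.4%), Ddx58, Ifih1, Trim25, Eif2ak2 and Adar, and in 9.76% of all genes in the table. TTCNNNGAA was found in 2 of the 7, Adar and Eif2ak2, and in 9.55% of all genes. No base of these windows belonged to matches of both motifs.

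The windows of the 5 genes with a match are printed 5′ to 3′ on the strand of the gene, because they show where the matches lie, and capitals mark GAAANNGAA or its reverse complement. Ddx58 is chr4:40239776-40240075 on the minus strand, with a match that begins at base 4 after the start in the reverse orientation. Ifih1 is chr2:62646206-62646505 on the minus strand, with matches 112 bases before the start, in the reverse orientation, and at base 33. Trim25 is chr11:88999153-88999452 on the plus strand, with a match 9 bases before the start in the reverse orientation. Eif2ak2 is chr17:78882523-78882822 on the minus strand, with a pair of matches at bases 19 and 25 that overlap each other. The window of Adar that holds matches is chr3:89730468-89730767 on the plus strand, with matches 249 bases before the start and at base 34, and its other windows hold none.
Ddx58: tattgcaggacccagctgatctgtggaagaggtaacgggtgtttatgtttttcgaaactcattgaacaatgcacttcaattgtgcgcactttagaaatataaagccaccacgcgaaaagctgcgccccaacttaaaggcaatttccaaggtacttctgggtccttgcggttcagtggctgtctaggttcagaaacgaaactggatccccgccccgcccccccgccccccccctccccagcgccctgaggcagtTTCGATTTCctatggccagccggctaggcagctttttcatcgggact
Ifih1: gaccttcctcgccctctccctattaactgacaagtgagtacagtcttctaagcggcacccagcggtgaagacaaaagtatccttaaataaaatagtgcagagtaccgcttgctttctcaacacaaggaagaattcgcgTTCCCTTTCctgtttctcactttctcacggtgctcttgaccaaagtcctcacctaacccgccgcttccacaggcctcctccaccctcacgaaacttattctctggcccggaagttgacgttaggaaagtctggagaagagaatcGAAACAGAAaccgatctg
Trim25: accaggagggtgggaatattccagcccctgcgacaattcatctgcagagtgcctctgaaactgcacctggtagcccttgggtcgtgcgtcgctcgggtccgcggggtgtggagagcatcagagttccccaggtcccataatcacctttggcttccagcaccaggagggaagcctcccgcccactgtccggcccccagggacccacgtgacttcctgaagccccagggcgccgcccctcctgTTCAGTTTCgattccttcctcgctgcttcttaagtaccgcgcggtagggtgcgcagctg
Eif2ak2: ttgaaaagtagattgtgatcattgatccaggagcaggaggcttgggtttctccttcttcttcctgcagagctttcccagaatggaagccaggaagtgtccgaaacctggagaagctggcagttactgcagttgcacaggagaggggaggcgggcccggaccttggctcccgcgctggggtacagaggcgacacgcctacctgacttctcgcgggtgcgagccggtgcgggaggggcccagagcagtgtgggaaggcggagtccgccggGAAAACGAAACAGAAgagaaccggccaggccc
Adar: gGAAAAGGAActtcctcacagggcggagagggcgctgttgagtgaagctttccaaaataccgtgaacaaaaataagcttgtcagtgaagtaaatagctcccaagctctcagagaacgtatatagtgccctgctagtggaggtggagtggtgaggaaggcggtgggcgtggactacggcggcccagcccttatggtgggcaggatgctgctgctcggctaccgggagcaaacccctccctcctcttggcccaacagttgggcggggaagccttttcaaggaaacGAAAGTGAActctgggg

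A match is a description of the letters and was not tested for binding. Over the 8798 genes above the threshold with a window, the 788 with GAAANNGAA had a median log2 ratio of tumor 2 to tumor 1 of -0.20, the same as the 8010 genes without it. Of the former, 32.6% were highest in tumor 2, and of the latter 32.3%. The windows of the members held a median of 15 CpG, against 20 for all genes above the threshold and 7 for all windows. No methylation value was used here.

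The genes around the members were taken as lists by function, and each is described by how many of its genes were above 0.2 FPKM in every tumor and by its median log2 ratio beside that of all genes, which was -0.18 for tumor 2 to tumor 1 and -0.24 for tumor 3 to tumor 1. Of the genes that signal below the helicases and TLR3, 18 of 18 were above the threshold, with medians of 0.15 and 0.12. Irf7, the interferon regulatory factor that interferon itself induces, had the highest mean and the largest ratio, with 16.8, 131.7 and 36.7 FPKM in tumors 1, 2 and 3. Rnf125, a ubiquitin ligase that limits the helicases, had 20.3, 25.9 and 27.9 FPKM. Tbk1, the kinase that activates the factors, had 18.3, 20.7 and 14.6 FPKM. The genes of this list were spread over the tumors with the FPKM as deposited, with 8, 5 and 5 highest in tumors 1, 2 and 3.

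Of the genes of PKR and the stress response through eIF2alpha, 12 of 12 were above the threshold, with median log2 ratios of 0.28 for tumor 2 to tumor 1 and -0.13 for tumor 3 to tumor 1. The transcription factor Atf4 had 30.8, 47.5 and 30.6 FPKM in tumors 1, 2 and 3. Ppp1r15b, a subunit of the phosphatase that reverses the phosphorylation of eIF2alpha, had 27.7, 30.4 and 28.5 FPKM. Dnajc3, an inhibitor of PKR, had 36.6, 21.6 and 22.2 FPKM. Atf4 was highest in tumor 2, as Eif2ak2 was, and Dnajc3 was highest in tumor 1. The largest ratio in the list was that of Ddit3, a factor induced by stress, with 4.84, 23.7 and 9.86 FPKM.

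The 4 partners of ZBP1 in cell death were above the threshold, with median log2 ratios of -0.13 for tumor 2 to tumor 1 and -0.51 for tumor 3 to tumor 1. The protease Casp8 had 27.3, 25.2 and 22.6 FPKM in tumors 1, 2 and 3. Ripk3, the kinase that ZBP1 engages, had 17.6, 15.9 and 22.9 FPKM. The values of both lay closer together over the tumors than those of Zbp1. Cflar, an inhibitor of Casp8, had 9.30, 5.03 and 5.55 FPKM. Mlkl, which carries out necroptosis, was the lowest of the 4 and had the largest ratio, with 1.47, 2.11 and 0.606 FPKM.

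Of the other genes that bind or edit double-stranded RNA, 7 of 11 were above the threshold, with median log2 ratios of -0.39 for tumor 2 to tumor 1 and -0.34 for tumor 3 to tumor 1. The other editing enzymes Adarb1 and Adarb2 and the related Adad1 were not above it, and neither was Stau2. The helicase Dhx9 had the highest mean and the largest ratio, with 23.8, 12.7 and 18.8 FPKM in tumors 1, 2 and 3. The list as a whole was lower in tumor 2 relative to tumor 1 than all genes were. Stau1 had 7.17, 5.88 and 4.91 FPKM.

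Of the sensors of DNA in the cytosol and their regulators, 6 of 7 were above the threshold, all but Ifi204, with median log2 ratios of -0.20 for tumor 2 to tumor 1 and -0.45 for tumor 3 to tumor 1. Samhd1, which degrades nucleotides, had 73.4, 69.8 and 39.4 FPKM in tumors 1, 2 and 3. Tmem173, which encodes STING, had 43.5, 25.1 and 29.97 FPKM. Ddx41 had 13.9, 17.3 and 15.5 FPKM. The list's median log2 ratio of tumor 2 to tumor 1 was close to that of all genes, -0.18, unlike the members' median of 0.77. For tumor 2 to tumor 3 its median was 0.25, against 0.07 for all genes and 0.96 for the members. Aim2, a sensor that forms inflammasomes, had the largest ratio, with 7.86, 3.43 and 6.11 FPKM.

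Of the other endosomal sensors, 4 of 5 were above the threshold, all but Tlr8, with median log2 ratios of 0.30 for tumor 2 to tumor 1 and -0.70 for tumor 3 to tumor 1. Unc93b1, which carries these receptors and TLR3 to endosomes, had 18.2, 46.8 and 11.2 FPKM in tumors 1, 2 and 3. Tlr7 had 1.51, 4.67 and 5.28 FPKM. Tlr13, which had the largest ratio, had 3.19, 0.813 and 0.554 FPKM. Unc93b1 was highest in tumor 2 and Tlr3, which it carries, was not.

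Of the 20 interferon genes, only Ifng was above the threshold in every tumor. Ifng, the type II interferon, had 8.49, 1.10 and 1.12 FPKM in tumors 1, 2 and 3, on 338, 27 and 30 reads. It was highest in tumor 1, where 8 of the 9 members were not. Over the 17 type I genes tumors 1, 2 and 3 had 5, 37 and 0 reads, and 10 of the 17 had no read in any tumor. Over the 2 type III genes there were 0, 8 and 0 reads. Ifna4 had 13 reads in tumor 2 and none in the others. Its FPKM there was 7.02 times what 3 reads, the limit for a count of 0, would give in tumor 1. It was 4.74 times what 3 reads would give in tumor 3. Such ratios to the limit leave out the counting error of the reads in the higher tumor, so they are not lower bounds. Ifna2 had 9 reads in tumor 2 (4.86 and 3.28 times the limits in tumors 1 and 3) and Ifna1 had 8 (4.32 and 2.92 times). Ifnl2 had 5 reads there (2.70 and 1.82 times). Ifna5 and Ifnl3 had 3 reads in tumor 2 and none in the others, which is at the limit. In tumor 1, Ifnab had 5 reads and none in the others. This was 1.03 times the limit in tumor 2 and 1.13 times that in tumor 3, too close to the limit to read a difference from it. The Ifna genes resemble each other in sequence, and how reads that fit several of them bear on these counts was not tested.

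Of the interferon receptors, their kinases and the factors they activate, 12 of 12 were above the threshold, with median log2 ratios of 0.67 for tumor 2 to tumor 1 and -0.01 for tumor 3 to tumor 1. The receptor subunit Ifngr1 had 64.1, 181.8 and 72.3 FPKM in tumors 1, 2 and 3. The kinase Jak1 had 64.3, 116.7 and 127.5 FPKM. Of the 12 genes 10 were highest in tumor 2. Usp18, which dampens the receptor and is itself induced by it, had the largest ratio, with 7.05, 81.5 and 30.4 FPKM.

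Of the interferon-induced antiviral genes, 27 of the 28 in the table (Mx2 was not) were above the threshold, all but Ifi44, and 25 of the 27 were highest in tumor 2. Their median log2 ratios, 1.74 for tumor 2 to tumor 1 and 0.38 for tumor 3 to tumor 1, were further above those of all genes than the members' medians of 0.77 and 0.14. Bst2 had 53.4, 458.7 and 138.3 FPKM in tumors 1, 2 and 3, and Isg15 had 26.0, 270.3 and 81.7 FPKM. Samd9l had 68.0, 151.1 and 94.5 FPKM. The largest ratio, of the highest to the lowest tumor, was that of Rsad2, with 0.653, 22.3 and 1.90 FPKM. In tumor 2 the FPKM was at least 2 times that of tumor 1 for 18 of the 27 genes. Windows of 21 of the 29 genes were in the promoter table, and 11 of these genes (52.4%) held GAAANNGAA.

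**Figure D4:**
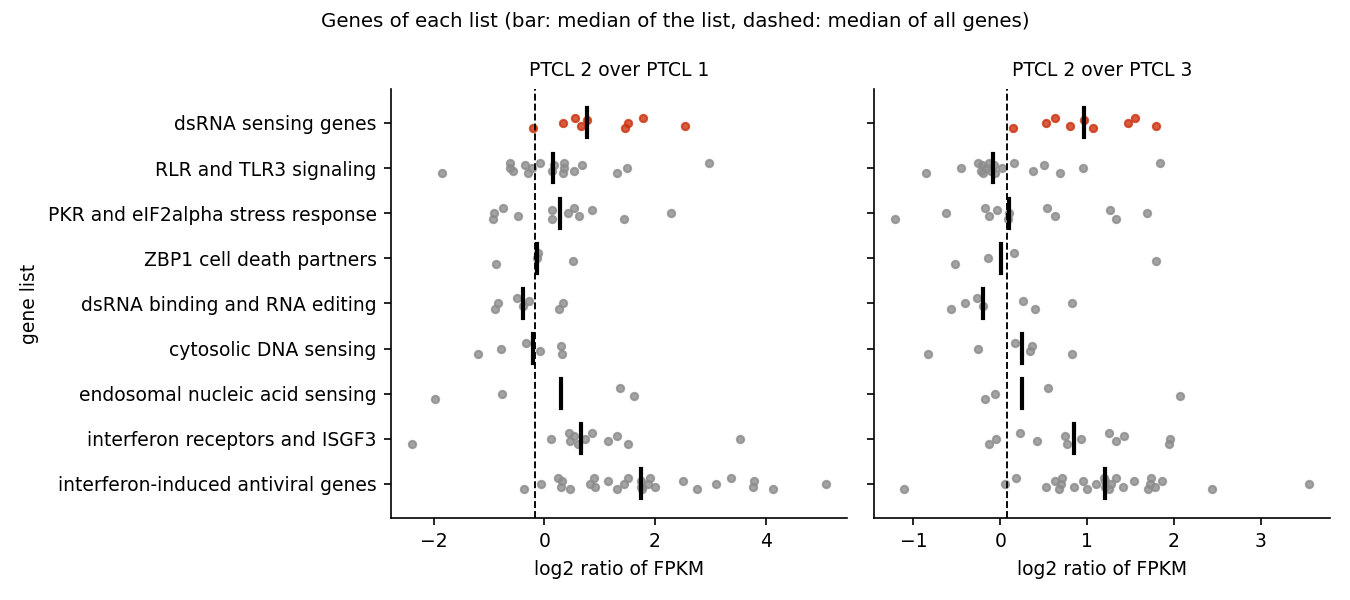
Log2 ratios of FPKM of tumor 2 to tumor 1 and to tumor 3 for the genes of each list above the threshold, as points, with the list's median and the median of all genes above the threshold. The interferon-induced antiviral genes have the highest median log2 ratio of tumor 2 to tumor 1, 1.74, and the 9 genes described here have 0.77.

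The genes whose pattern over the 3 tumors was most like the median pattern of the members were found among 10898 other genes with a mean of at least 1 FPKM. Likeness was measured as the distance between log2 FPKM centred over the tumors, and the median distance over all of them was 0.936. The nearest was Zfp513 at 0.0449, with 6.01, 11.1 and 5.83 FPKM in tumors 1, 2 and 3. It was followed by Gm20559 at 0.0462, with 18.9, 34.9 and 18.5 FPKM, and by 2310015A10Rik, Pld3, Trak1, Gm29093, Rgs12, Gm20219, Abcb1a and Neu1, at up to 0.0561. None of these 10 is in a list above, and with 3 tumors many genes share a pattern. The members lay farther off than these genes, from 0.219 for Ddx58 to 1.17 for Dhx58.

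The label of the samples, T-cell lymphoma, was checked against marker genes. All 8 T cell markers were above the threshold in every tumor, with summed FPKM of 1458, 1132 and 1577 in tumors 1, 2 and 3, and the most abundant was Cd8b1 with 434.7, 166.0 and 443.4 FPKM. Cd3e had 56.4, 78.1 and 65.3 FPKM. Cd4 had 28.4, 4.28 and 8.22 FPKM. The sum was lowest in tumor 2, as were Cd8a, Cd8b1 and Trbc2, while Cd3e, Cd3g, Trac and Lck, 4 of the 8, were highest there with the FPKM as deposited. The part of T cell content in the level of the members was not tested.

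Markers of other cells varied between tumors too. The B cell list, all 5 genes above the threshold and led by Cd79a, summed to 56.2, 13.7 and 103.6 FPKM in tumors 1, 2 and 3. The plasma cell list, 3 of 3 and led by Jchain, summed to 826.2, 188.3 and 205.4. The macrophage list, 4 of 5 and led by Lyz2, summed to 263.5, 89.7 and 32.6. Each of these sums was lower in tumor 2 than in tumor 1, but Cd68, of the macrophage list, went the other way, with 19.6, 51.2 and 9.27 FPKM. The type 1 conventional dendritic cell list, 4 of 4 and led by Wdfy4, summed to 9.12, 8.60 and 5.55 FPKM, lowest in tumor 3 as Tlr3 was. Of its genes Clec9a, with 1.27, 2.29 and 0.731 FPKM, and Batf3, with 1.16, 1.32 and 0.512 FPKM, were highest in tumor 2. The macrophage, endothelial, epithelial, fibroblast and exocrine pancreas sums were also lowest in tumor 3. The part of any of these cells in the level of Tlr3 was not tested. The plasmacytoid dendritic cell list, 2 of 3 and led by Ly6d, summed to 12.9, 20.8 and 30.6, of which Klk1, also made by glands, gave 17.4 in tumor 2 and Ly6d 29.4 in tumor 3, while Siglech was lowest in tumor 2, with 2.52, 0.187 and 0.655 FPKM. The neutrophil list, 2 of 4 and led by S100a9, summed to 35.9, 1.30 and 14.8, with Ly6g and Mpo without a read in tumors 2 and 3. The endothelial list, 1 of 3 and led by Pecam1, summed to 13.5, 12.7 and 5.08, with its gene Cdh5 highest in tumor 2 at 1.39 FPKM against 0.805 in tumor 1, and the epithelial list, 2 of 4 and led by Cdh1, to 14.2, 2.75 and 0.913. Cdh1 gave 13.7 of the epithelial sum in tumor 1, and the other 3 markers, Epcam, Krt8 and Krt18, were highest in tumor 2, at up to 1.14 FPKM. With the FPKM as deposited none of these lists had its highest sum in tumor 2, but with median-of-ratios and with T cell marker factors the sums of the dendritic cell type 1 and the endothelial list were.

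The lists with their highest sum in tumor 2, where 8 of the 9 members were highest, were those of exocrine pancreas, fibroblasts and NK cells. The exocrine pancreas list summed to 63.4, 349.5 and 0.524 FPKM in tumors 1, 2 and 3, with 0 of 5 genes above the threshold in every tumor and with the most abundant gene, Ctrb1, at 33.9 and 197.7 FPKM and no read in tumor 3. The fibroblast list, 1 of 4 and led by Col1a1, summed to 8.26, 26.7 and 0.340, with Pdgfra without a read in tumor 3, and its gene Dcn was highest in tumor 1, with 5.04 FPKM against 3.27 in tumor 2. The NK cell list, 1 of 2 and led by Klrb1c, summed to 0.688, 5.97 and 3.51, and its other gene Ncr1 was highest in tumor 1, with 0.380, 0.205 and 0.125 FPKM. The part of the cells these lists mark in the level of the members was not tested.

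**Figure D5:**
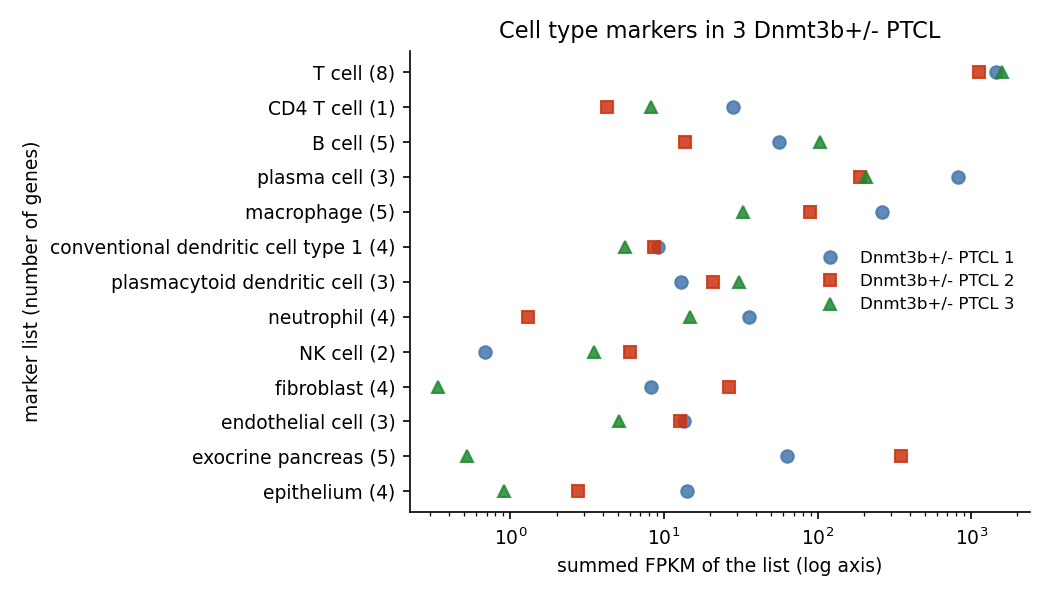
Summed FPKM (log axis) of each cell type marker list in each of the 3 tumors. The exocrine pancreas, fibroblast and NK cell lists are highest in tumor 2, and the T cell list is lowest there.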

How the data were processed

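FPKM, on a linear scale, are the values the authors deposited for the RNA-seq of the 3 tumors. According to the study's methods, STAR aligned the reads to mm10, and the RNA-seq pipeline of SeqMonk quantified those of mapping quality 50 and above. Of the 34245 genes, 26 symbols turned into dates were restored, and the copy with the highest mean stood for a repeated symbol. A gene without a read has the FPKM of 0.9 read, which gave the depth. Reads per gene were recovered with GENCODE M21 exon lengths, and 92.7% of the genes gave whole reads (within 0.05) in every tumor. The limit for a count of 0 was 3 reads. The 95% intervals of ratios are exact binomial (Clopper-Pearson) and cover counting error only. With a single group, no test was made.

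The members and lists were chosen with earlier results of these data known. Named genes are the members, in each list the 3 genes with the highest mean and the gene with the largest ratio, interferon genes above 3 reads or 0.2 FPKM, the 10 nearest genes, and the leading gene of each marker list. Of the genes this rule names, 2 are not reported here. Any further gene was named with its values known. The alternatives were each tumor's FPKM rescaled to a sum of 1000000, median-of-ratios factors, T cell marker factors (the geometric mean of the 8 markers, chosen after seeing the data), repeated symbols summed, log2(FPKM + 1), fold thresholds of 1.5 and 3, FPKM thresholds of 1 and 5, members above 1 FPKM in every tumor, and each tumor left out. The steps were tested on simulated data. The software was Python 3.11 with SciPy 1.17.1, NumPy 2.4.6, matplotlib 3.10.9 and pandas 2.3.3.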

Additional observations from a re-analysis of the deposited data

How the results depend on the processing

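The 18 results that describe the members were recomputed under the alternatives, which gave 117 values. Of these, 104 stayed within the spread between tumors or within 1.5 times the main count. They include all values with repeated symbols summed, which could not change because no member's symbol is repeated. That spread, an SD of 0.98 on the log2 scale for the medians, includes tumor 2. Without tumor 2 the mean of Dhx58 went from 15.7 to 7.43 FPKM, that of Zbp1 from 79.4 to 47.0, that of Eif2ak2 from 8.88 to 5.50, and the median log2 ratio of the highest to the lowest tumor from 1.18 to 0.31. With each tumor rescaled to sum to 1000000, a unit of another size, the means were 83.4 for Ddx58, 30.2 for Ifih1, 75.6 for Dhx58, 33.9 for Mavs, 7.17 for Tlr3, 383.7 for Zbp1, 95.3 for Adar, 43.1 for Eif2ak2 and 82.4 for Trim25. These values are larger by construction, since the deposited FPKM sum to less than 1000000.

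The median log2 ratio of tumor 3 to tumor 1, 0.14 in the main values, was -0.10 with rescaling and -0.034 with T cell marker factors, which were chosen after seeing the data. These alternatives shift all genes alike by construction. The median log2 ratios that involve tumor 2 kept their direction under all scalings, from 0.63 to 0.95 for tumor 2 to tumor 1 and from 0.90 to 1.32 for tumor 2 to tumor 3.

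The number of members with a highest to lowest ratio of at least 2 was 6, and 2 with a fold threshold of 3, against 15.5% of all genes. With a fold threshold of 1.5 it was 7 of 9, against 64.2% of all genes. With a tumor left out it ran from 1 to 4, where fewer tumors are compared by construction. It was 1 without tumor 2 (17.5% of all genes), 4 without tumor 1 (15.9%) and 4 without tumor 3 (24.8%). The number highest in tumor 2 was 8 under all scalings and was not recomputed with tumors left out. Ratios between a pair of tumors have no value when a tumor of the pair is left out. The use of all members without the threshold gave the main values for the members, since all 9 passed it. Without the threshold the medians of all genes were 0.70 for tumor 2 to tumor 1 and 0.56 for tumor 3 to tumor 1. The members' median for tumor 3 to tumor 1, 0.14, then lay below that of all genes. A gene without a read in any tumor, such as Adad1, has these same log2 ratios, which the depths alone set. Depth limits genes on few reads, among them Tlr3 and the interferon genes. No paired analysis was possible because the results come from no test between groups.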
